A study of Mus musculus with 4 samples.

Results

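Cluster 03 of the authors' clustering held 66 of the 3023 mouse brain cells in the deposited table, and its members are all cells that the authors' file of cells assigns to it. Transcripts were counted in 4 droplet libraries, each from 2 pooled hemibrains of male mice of 12 to 14 months. The libraries were Trem2 -/- mice after 12 weeks of 0.2% cuprizone in the diet (KO cuprizone), Trem2 +/- mice on the same diet (Het cuprizone), Trem2 +/+ mice on the same diet (WT cuprizone) and Trem2 +/+ mice after 12 weeks of control diet (WT control). Cuprizone is a copper chelator that kills oligodendrocytes and strips myelin, and Trem2 encodes a lipid-sensing receptor of microglia. How the knockout allele was made is not given in the sources used here. Live CD11b+ CD45low cells were sorted, 30000 per hemibrain, a gate meant for microglia that can itself set how many cells of other types appear. Each group has 1 library, so no difference between groups was tested and every interval below covers counting error only.

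The markers given for the cluster belong to different cell types. S100a8 and S100a9 form calprotectin, the abundant cytosolic calcium-binding protein of neutrophils, while Camp (cathelicidin) and Ngp (neutrophilic granule protein) are packed into neutrophil granules during maturation in the bone marrow. Granule genes are switched on in turn, with Elane, Mpo and Prtn3 of the primary granules earliest. Ltf, Camp, Ngp and Lcn2 of the secondary granules come next, then the gelatinase gene Mmp9, and Retnlg and Cxcr2 in mature cells. Ttr (transthyretin, a carrier of thyroid hormone and retinol) is made in the brain by the choroid plexus epithelium, which secretes cerebrospinal fluid, and Enpp2 (autotaxin, which makes lysophosphatidic acid) is made there and by myelinating oligodendrocytes.

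The 4 neutrophil genes lie on chromosomes 3 and 9, and their promoters are printed here because the 4 transcripts were carried by the same cells. In GENCODE M21 on GRCm38, S100a8 lies at chr3:90668978-90670035 on the forward strand and S100a9 at chr3:90692632-90695721 on the reverse strand, while Camp lies at chr9:109847379-109849617 on the reverse strand and Ngp at chr9:110419747-110423012 on the forward strand. The sequences below are RefSeq promoters on GRCm38.p6, 300 bases each, read 5' to 3' on the gene's strand. Capitals mark matches to TATAAA on the gene's strand, and to TTNNGNAA (a loose form of the C/EBP site) or AGGAAG (an ETS core) on either strand.
S100a8, chr3:90668821-90669120, forward strand: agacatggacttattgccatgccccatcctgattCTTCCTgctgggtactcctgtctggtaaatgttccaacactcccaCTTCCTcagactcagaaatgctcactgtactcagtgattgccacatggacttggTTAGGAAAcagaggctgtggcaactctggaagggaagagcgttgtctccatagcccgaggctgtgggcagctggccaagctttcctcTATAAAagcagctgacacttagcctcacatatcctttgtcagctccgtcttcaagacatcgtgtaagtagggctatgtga
S100a9, chr3:90695672-90695971, reverse strand: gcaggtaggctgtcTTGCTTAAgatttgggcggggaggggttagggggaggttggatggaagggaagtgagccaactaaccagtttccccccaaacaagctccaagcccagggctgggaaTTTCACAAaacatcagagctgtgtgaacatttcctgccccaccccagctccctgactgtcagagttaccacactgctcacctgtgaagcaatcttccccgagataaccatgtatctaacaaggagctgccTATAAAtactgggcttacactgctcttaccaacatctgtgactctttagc
Camp, chr9:109849407-109849706, reverse strand: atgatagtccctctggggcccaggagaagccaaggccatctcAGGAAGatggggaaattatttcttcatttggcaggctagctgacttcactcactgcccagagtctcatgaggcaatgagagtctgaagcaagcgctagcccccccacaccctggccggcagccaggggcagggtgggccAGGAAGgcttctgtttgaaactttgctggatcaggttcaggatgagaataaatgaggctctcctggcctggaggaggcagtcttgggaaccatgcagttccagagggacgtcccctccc
Ngp, chr9:110419558-110419857, forward strand: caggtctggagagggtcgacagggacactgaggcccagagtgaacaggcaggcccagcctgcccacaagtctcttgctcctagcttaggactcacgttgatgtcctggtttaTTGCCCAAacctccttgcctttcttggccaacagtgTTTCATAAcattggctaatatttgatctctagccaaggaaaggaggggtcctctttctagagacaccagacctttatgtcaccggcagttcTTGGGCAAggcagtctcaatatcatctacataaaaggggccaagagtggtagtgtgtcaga
TATAAA occurred in the S100a8 and S100a9 windows, 1 match each, and in 8.32% of 32851 promoters of the same length. Relative to the start site that the window is set on, the S100a8 match lay at -30 to -25. The S100a9 match lay at 0 to 5, on the start site itself. The window of S100a8 held 1 match to TTNNGNAA, that of S100a9 held 2, that of Ngp held 3 and that of Camp held 0, against 40.7% of all promoters with at least 1. AGGAAG had 2 matches in S100a8 and 2 in Camp, and 0 in S100a9 and Ngp, against a share of 35.4%. A match describes letters in the window and is not a binding site.

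The depth of a cell is its number of unique molecular identifiers (UMIs), the tags that count captured molecules. Cluster 03 cells held 1995 to 32696 UMIs with a median of 4959.5, and cells outside it 1876 to 37781 with a median of 6473. By library the cluster's median was 4415 UMIs in KO cuprizone, 5571.5 in Het cuprizone, 7612 in WT cuprizone and 2943 in WT control. Library totals were 7849741 UMIs in KO cuprizone, 7465251 in Het cuprizone, 7006408 in WT cuprizone and 4747730 in WT control. Of 3015 cell barcodes, 8 occurred in more than 1 library. The targeted gene, Trem2 (chr17:48346401-48354147, forward strand), was lowest outside the cluster in KO cuprizone, at 499 CPM (UMIs summed over cells and scaled to a total of 1000000), against 1703 in Het cuprizone, 2848 in WT cuprizone and 3004 in WT control. The KO library therefore still held Trem2 UMIs, in 88.9% of its cells outside the cluster, and which part of the gene was removed is not given in the sources used here.

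Of the cluster's 66 cells, KO cuprizone gave 18 of its 885 cells (2.03%, exact binomial 95% interval 1.21 to 3.2), Het cuprizone 20 of 802 (2.49%, 1.53 to 3.83), WT cuprizone 21 of 765 (2.75%, 1.71 to 4.17) and WT control 7 of 571 (1.23%, 0.494 to 2.51). These intervals overlap in all pairs. A cell was counted as carrying a marker set at 10 or more UMIs summed over the set, and on that rule the cluster fell into kinds of cells that did not overlap. The 4 neutrophil genes were carried by 19 cells (28.8%), Ttr or Enpp2 by 15 cells (22.7%), both sets by 0 cells, and neither set by 32 cells (48.5%). The name of the cluster, mixed neutrophil and choroid-plexus-like cells, thus covers only some of its members, so it is called by its number here. Within the neutrophil set the lowest carrying cell had 36 UMIs and the highest cell under the limit had 3. For Ttr and Enpp2 the limit fell in a continuum, with 11 UMIs in the lowest carrying cell and 9 in the highest cell below it, and 7 cells had 5 to 9 UMIs.

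Counts of the kinds differed between libraries. For each kind given here, the exact binomial 95% intervals of its share of a library's cells overlapped in all pairs. Neutrophil-gene cells numbered 5 in KO cuprizone, 10 in Het cuprizone, 4 in WT cuprizone and 0 in WT control, where a count of 0 allows up to 3 of 571 cells, or 0.525% (exact binomial upper limit 0.644%). Cells with at least 10 Ttr UMIs numbered 2 in KO cuprizone, 1 in Het cuprizone, 6 in WT cuprizone and 2 in WT control. The other 4 cells of the Ttr or Enpp2 set had at least 10 Enpp2 UMIs and at most 1 Ttr UMI, 2 of them in KO cuprizone and 2 in Het cuprizone, and all 4 were led by oligodendrocyte genes. Cells with neither set numbered 9 in KO cuprizone, 7 in Het cuprizone, 11 in WT cuprizone and 5 in WT control. Within the cluster the share of neutrophil-gene cells was 27.8% in KO cuprizone (9.69 to 53.5), 50% in Het cuprizone (27.2 to 72.8), 19.05% in WT cuprizone (5.45 to 41.9) and 0% of 7 cells in WT control.

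**Figure D1:**
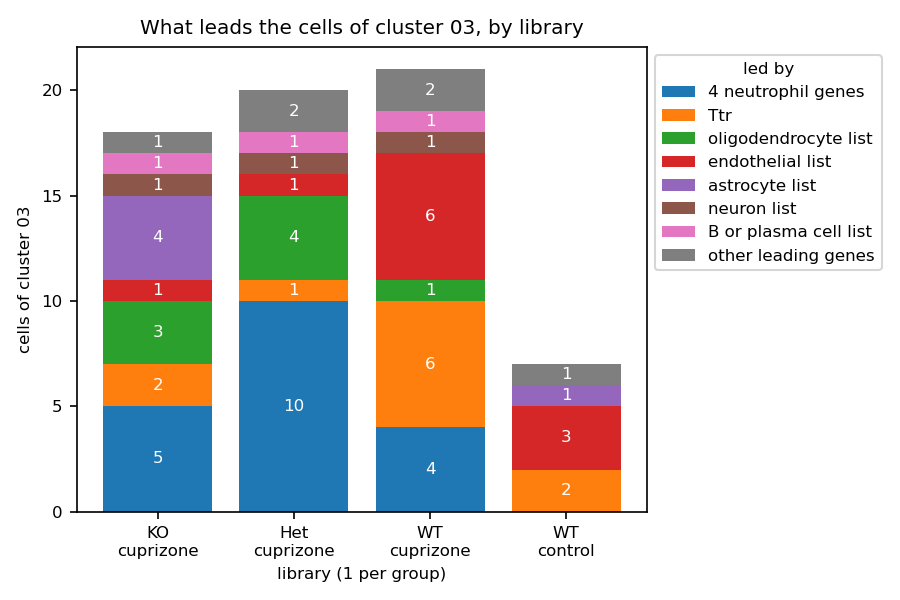
Stacked bars give the number of cluster 03 cells (y axis) in each library (x axis, 1 library per group), coloured by the marker set or list that leads the cell. Neutrophil-gene cells number 5, 10, 4 and 0 from left to right, and the bars total 18, 20, 21 and 7 cells.

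**Figure D2:**
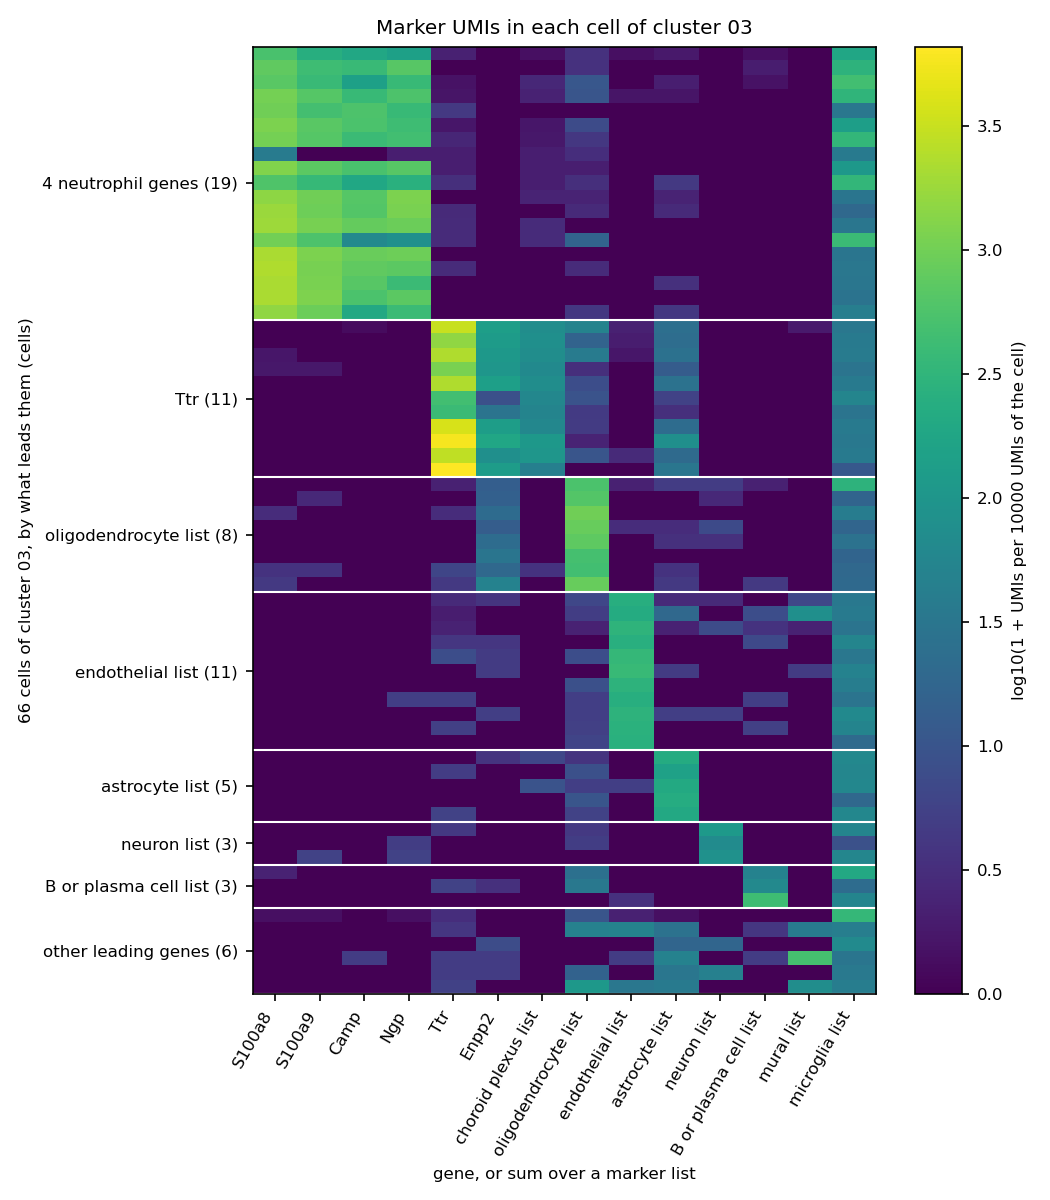
Each row is 1 of the 66 cells of cluster 03, grouped by what leads it, and each column is a gene or the sum of a marker list. Colour is log10 of 1 plus the UMIs per 10000 UMIs of the cell. The 19 neutrophil-gene cells are at or near 0 for Enpp2 and the choroid plexus list, and the 11 Ttr cells are at or near 0 for the 4 neutrophil genes.

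In the neutrophil-gene cells the 4 transcripts made up a large part of the captured RNA. In 18 of the 19 cells they summed to 887 to 4478 UMIs, 11.2 to 51.7% of the cell's UMIs. The cell with the highest sum, from KO cuprizone, had 1534 S100a8, 847 S100a9, 765 Camp and 1332 Ngp UMIs. The exception was a Het cuprizone cell with 35 S100a8, 0 S100a9, 0 Camp and 1 Ngp UMI. That cell instead had 376 UMIs of Lyz2 (lysozyme), 39 of Chil3 and 29 of Ly6c2, a surface gene of inflammatory monocytes and bone marrow precursors. Ly6c2 has a near-identical neighbour, Ly6c1, and how reads shared by both were counted is not given in the sources used here.

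Levels of the 4 genes within the carrying cells were of similar size in the cuprizone libraries. S100a8 was at 95910 CPM in KO cuprizone, 102519 in Het cuprizone and 117018 in WT cuprizone, and S100a9 at 52456, 58054 and 65028 CPM in the same libraries. Camp was at 35467 CPM in KO cuprizone, 38696 in Het cuprizone and 47298 in WT cuprizone. Ngp ran the other way, at 53963 CPM in KO cuprizone, 45564 in Het cuprizone and 45133 in WT cuprizone. The WT cuprizone library was thus highest for 3 of the 4 genes and lowest for Ngp, over only 4 to 10 cells per library. These genes chose the cells, so their levels are a description.

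Other neutrophil genes that the choice of cells did not use were present in the same cells. Genes were called at least 2-fold higher or lower against all cells outside the cluster where the ratio of CPM passed 2-fold, its exact conditional 95% interval excluded 1, and both sides together held at least 50 UMIs. On that rule 4.73% of 10394 genes were called higher and 10.7% lower. Without the Het cuprizone library, 569 genes were lower in place of 1109. With TMM scaling, which sets the bulk of genes equal, 53.8% of the calls were higher, against 30.7% with CPM. The genes were seen by the clustering too, so the counts describe the cells and are no test. The primary granule list had 3 of 3 tested members higher, the secondary and tertiary granule list 11 of 12, and the mature neutrophil list 6 of 8. Prtn3 of the primary granules had 169 UMIs here and 6 outside, so it passed the 50 UMI minimum only through the 19 cells. Ltf (lactoferrin) had 1500 UMIs in 16 of the 19 cells and was 491-fold higher (441 to 548), and Chil3, a chitinase-like protein of maturing myeloid cells, had 959 UMIs and was 607-fold higher (524 to 706). Further leading genes were Ly6g (774-fold), the neutrophil surface antigen, Cebpe (708-fold), a transcription factor of granule formation, Serpinb1a (620-fold), an inhibitor of neutrophil proteases, and Cd177 (427-fold), a neutrophil surface protein. They had 16, 23, 42 and 44 UMIs outside, in that order, so they too passed the minimum only through the 19 cells. Prtn3, Ly6g and Cd177 are members of the lists counted above. Lcn2 had 893 UMIs, Wfdc21 791, Anxa1 597 and Ifitm6 308. Against only those outside cells with fewer than 10 UMIs of the 4 genes, a choice made after seeing the data, the ratio was 3904-fold (2968 to 5236) for Ltf and 4561-fold (3155 to 6848) for Chil3, genes that this choice did not use.

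Members that were not higher, or that were lower, also belong to the description. Itgam, the CD11b chain of the sort, had 37 UMIs in 18 of the 19 cells and a ratio of 0.640, which was not called. Csf3r, the receptor for the neutrophil growth factor G-CSF, was called lower at 0.354, and Il1b, an inflammatory cytokine, at 0.0998. Cells outside the cluster held 3932 Csf3r and 5578 Il1b UMIs. Clec4d was at 0 UMIs, and Cxcr2 (5 UMIs), Trem1 (8) and Il1r2 (10) fell under the 50 UMI minimum. Of 6 monocyte genes, Ly6c2 and Plac8 were called higher, with 190 and 74 UMIs, while Ccr2 (1 UMI), Fn1 (2), Ms4a4c (1) and F13a1 (6) were not called.

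The 19 cells differed in which granule genes they held. At least 100 UMIs of primary granule genes were found in 2 cells. One was a Het cuprizone cell with 577 Elane, 72 Mpo, 112 Prtn3 and 0 Ltf UMIs, and the other a WT cuprizone cell with 153 Elane, 27 Mpo, 54 Prtn3 and 9 Ltf UMIs. Elane therefore rests on few cells, with 730 of its 734 UMIs in this pair. Ltf was at 40 UMIs or more in 15 cells, and Mmp8 had a UMI in 11. Retnlg passed 100 UMIs in 2 cells, at 165 in a WT cuprizone cell with 45 Ltf UMIs and 152 in a Het cuprizone cell with 0 Ltf UMIs, and the next cells had 44 and 31. Both sets of cells came from Het cuprizone and WT cuprizone, with KO cuprizone cells in neither.

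Cell cycle genes were found in some of the same cells. All 13 members of that list were called higher over the 19 cells, against 4.73% of all genes, and 9 to 13 under the alternatives. The 19 cells had 337 UMIs of Hmgb2 (11.02-fold), 381 of H2afz (5.21-fold) and 104 of Stmn1 (9.43-fold). Mki67 or Top2a, which mark dividing cells, had a UMI in 7 cells and at least 2 UMIs in 6. These 6 were 1 KO cuprizone cell, 4 Het cuprizone cells and 1 WT cuprizone cell, and both cells with high Elane were among them. Top2a reached 8 UMIs and Mki67 7 in the Het cuprizone cell with the most Elane. Stmn1, a tubulin regulator of dividing cells and neurons, was at 0 in every one of the 19 cells that had no UMI of Mki67 or Top2a.

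**Figure D3:**
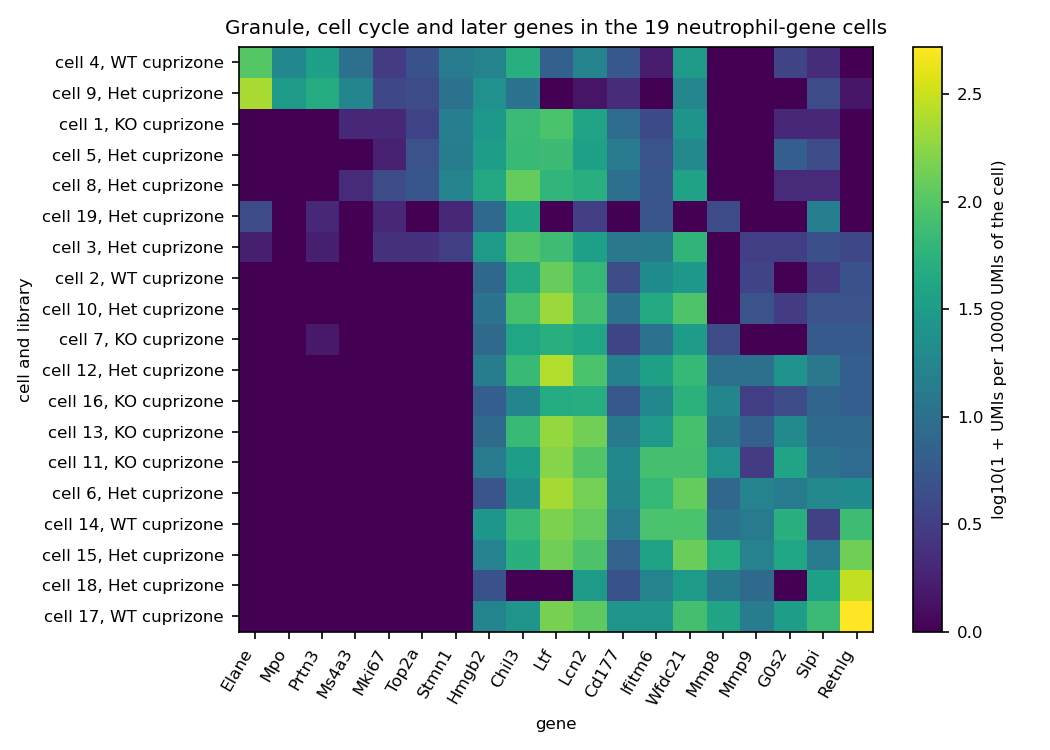
Rows are the 19 neutrophil-gene cells with their library, with the cells high in primary granule genes on top and the rest ordered by Retnlg, and columns run from primary granule and cell cycle genes on the left to later genes on the right. Colour is log10 of 1 plus UMIs per 10000 UMIs of the cell. Elane is high in 2 cells, Ltf in most, and Retnlg passes 100 UMIs in 2 cells.

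Microglia transcripts split the 19 cells. The 16 microglia genes, among them P2ry12, Cx3cr1 and Csf1r, made up 0.184 to 0.413% of UMIs in 10 cells and 1.07 to 4.55% in 9, a division at 1% chosen after seeing the data. Cells outside the cluster had a median of 6.09% (0.998 to 13.8). The 9 cells were from KO cuprizone (3), Het cuprizone (5) and WT cuprizone (1), held a median of 13794 UMIs and 3038 genes, and gave a median of 22.8% of their UMIs to the 4 neutrophil genes. The 10 cells were from KO cuprizone (2), Het cuprizone (5) and WT cuprizone (3), and held a median of 5153 UMIs and 1101.5 genes with 44.1% in the 4 genes. In the 9 cells the microglia list was called lower for 10 of 16 genes (background 5.36% of genes lower) and the cell cycle list higher for 13 of 13 (3.77% higher). In the 10 cells the microglia list was lower for 16 of 16 (6.25%) and the cell cycle list higher for 9 of 13 (4.18%). The microglia counts are set by the split, which used the same list. Depth and microglia transcripts thus move together with these counts, and their part in them was not tested. The doublet caller scrublet marked 0 cells of cluster 03, but it marked only 22 of 3023 cells in all, 20 of them in KO cuprizone, and no other test for doublets was made.

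Outside cluster 03, 11 further cells passed the same limit for the neutrophil genes. They came from KO cuprizone (4 of 867) and Het cuprizone (7 of 782), with 0 of 744 in WT cuprizone and 0 of 564 in WT control. The authors' clusters 02 (6 cells), 04 (2), 05 (1) and 07 (2) held them. Their 4-gene sums ran from 140 to 2214 UMIs, 0.695 to 19.6% of the cell. Each was deep, at 10082 to 35480 UMIs with a median of 22582, and each held microglia transcripts, at 2.84 to 5.03% of UMIs. Against the other outside cells, the secondary and tertiary granule list was called higher for 10 of 11 tested genes and the microglia list lower for 0 of 16 (background 2.29% higher, 1.64% lower). Over whole libraries, cells past the neutrophil limit therefore numbered 9 in KO cuprizone, 17 in Het cuprizone, 4 in WT cuprizone and 0 in WT control.

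**Figure D4:**
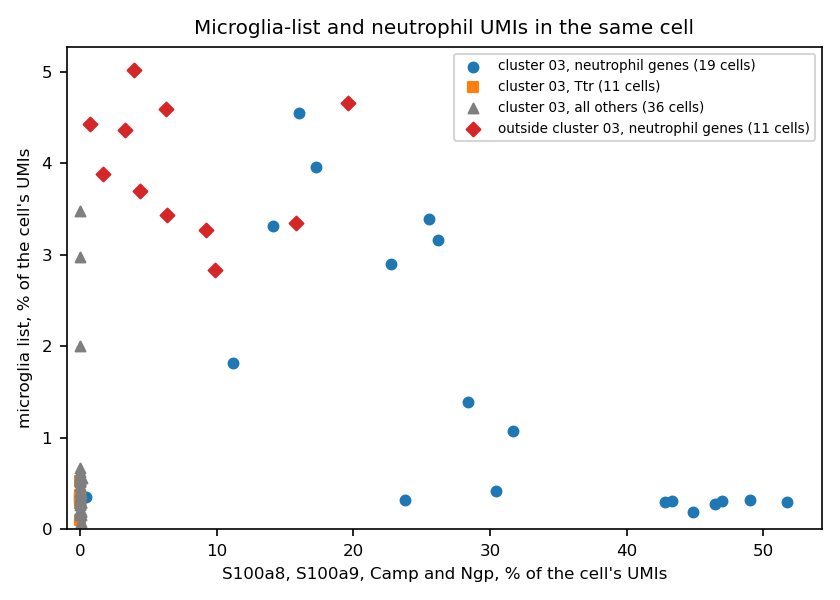
Each point is a cell, with the share of its UMIs from S100a8, S100a9, Camp and Ngp on the x axis and the share from the 16 microglia genes on the y axis, both in percent. The 11 carrying cells outside cluster 03 lie between 2.84 and 5.03% on the y axis, and the 19 inside split into 10 cells under 0.413% or at it and 9 cells from 1.07 to 4.55%.

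Low counts of the same genes were spread through the other cells of the cuprizone libraries. An S100a8 UMI was found in 25.03% of outside cells in KO cuprizone, 40.4% in Het cuprizone, 12.9% in WT cuprizone and 0.177% in WT control, at median depths of 6550, 6859.5, 6587 and 5278 UMIs. With each cell thinned to 2000 UMIs, leaving out 8 outside cells, the shares were 6.23% in KO cuprizone, 12.3% in Het cuprizone, 4.17% in WT cuprizone and 0% in WT control. The order of the libraries was the same as that of cells past the neutrophil limit. In cells outside under the limit, S100a8 made up 38.5% of the 4-gene UMIs in KO cuprizone, 38.7% in Het cuprizone and 35.4% in WT cuprizone, against 40.3%, 41.9% and 42.6% in the carrying cells of those libraries. The WT control library held 1 S100a8 UMI in all. Whether these low counts come from free RNA in the droplets was not tested.

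The 11 Ttr cells came from all 4 libraries, WT control included. Their Ttr counts were 3392 and 1561 UMIs in KO cuprizone, 4234 in Het cuprizone, 352 to 10238 with a median of 2830.5 over 6 cells in WT cuprizone, and 1938 and 498 in WT control. Enpp2 was detected in every one of them, at 160 and 43 UMIs in KO cuprizone, 133 in Het cuprizone, 25 to 454 in WT cuprizone, and 38 and 8 in WT control. Ttr and Enpp2 together took 4.34 to 67.1% of a cell's UMIs.

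Genes of the choroid plexus epithelium that the choice of cells did not use were found with Ttr. Of the 20 listed, 14 were measured and 8 had enough UMIs, and all 8 were called higher against the outside cells. Over all 10396 genes, 11.4% were called higher and 12.5% lower. Krt18, Clic6, Sostdc1, Kcnj13, Folr1 and Calml4 had 1, 3, 4, 6, 9 and 11 UMIs outside, in that order. They passed the UMI minimum only through the 11 cells, so they could be tested only if high there. Nothing is therefore read from 8 of 8 against the share of all genes. In the Ttr or Enpp2 cells the count ran from 3 to 8 over all alternatives. The list summed to 13 to 240 UMIs in each of the 11 cells. Calml4, a calmodulin-like protein, had 149 UMIs in all 11 cells (2667-fold, 1448 to 5458), Folr1, the folate receptor that carries folate into cerebrospinal fluid, 82 UMIs in all 11 (1794-fold, 900 to 4062), and Kcnj13, an inward rectifier potassium channel, 77 UMIs in 10 (2527-fold, 1109 to 7098). Sostdc1, a secreted BMP antagonist, had 90 UMIs in all 11 (4430-fold) and 1500015O10Rik (augurin) 155 UMIs in all 11 (1526-fold). Krt18, a keratin of simple epithelia, had 77 UMIs against 1 outside (ratio 15159, interval 2641 to 606442), Msx1 66 against 2 (ratio 6497, 1729 to 54766) and Clic6 81 against 3 (ratio 5316, 1755 to 26313).

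Members too sparse for a call were also present. Kl, the gene for the ageing-related coreceptor klotho, had 37 UMIs in 9 of the 11 cells, Trpm3 33 in 8, Kcne2 29 in 9, Lbp 24 in 9, Slc29a4 16 in 8 and Tmem72 6 in 4. Cilia genes Rsph1 and Dynlrb2 had 35 UMIs in 9 and 30 UMIs in 8 of the 15 cells with Ttr or Enpp2, while Rarres2, an ependymal gene, was at 0. Clu, listed for astrocytes but also made by choroid plexus, had 291 UMIs in 12 of these 15 cells. The astrocyte list was called higher for 3 of 4 tested genes there, Clu and Aldoc (5 UMIs) among them, and lower for Slc1a3, where 12.5% of all genes were higher and 12.5% lower. It passed 10 UMIs over 3 genes in 3 of the 11 Ttr cells, 1 from KO cuprizone and 2 from WT cuprizone. In the 15 cells Slc1a2, Gja1, Aqp4 and Gfap of the same list were at 0. The microglia list took 0.102 to 0.530% of UMIs in the 11 cells and was called lower for 16 of 16 genes.

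Ttr was also seen at low level in most other cells. A Ttr UMI was found in 53.3% of outside cells in KO cuprizone, 59.2% in Het cuprizone, 73.9% in WT cuprizone and 66.3% in WT control, and after thinning in 19.1%, 25.1%, 33.6% and 29.9% in the same libraries. The level outside was 105 CPM in KO cuprizone, 132 in Het cuprizone, 207 in WT cuprizone and 181 in WT control. Inside the cluster, the neutrophil-gene cells had 21 Ttr UMIs (ratio 0.724 to outside, 0.448 to 1.11) and the cells with neither set 25 (ratio 1.16, 0.750 to 1.71), neither called. Enpp2 UMIs were in 1.96 to 4.03% of outside cells across libraries. Only 7 outside cells reached 10 UMIs of Ttr and Enpp2, the highest being a KO cuprizone cell of cluster 01 with 33 Ttr UMIs.

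**Figure D5:**
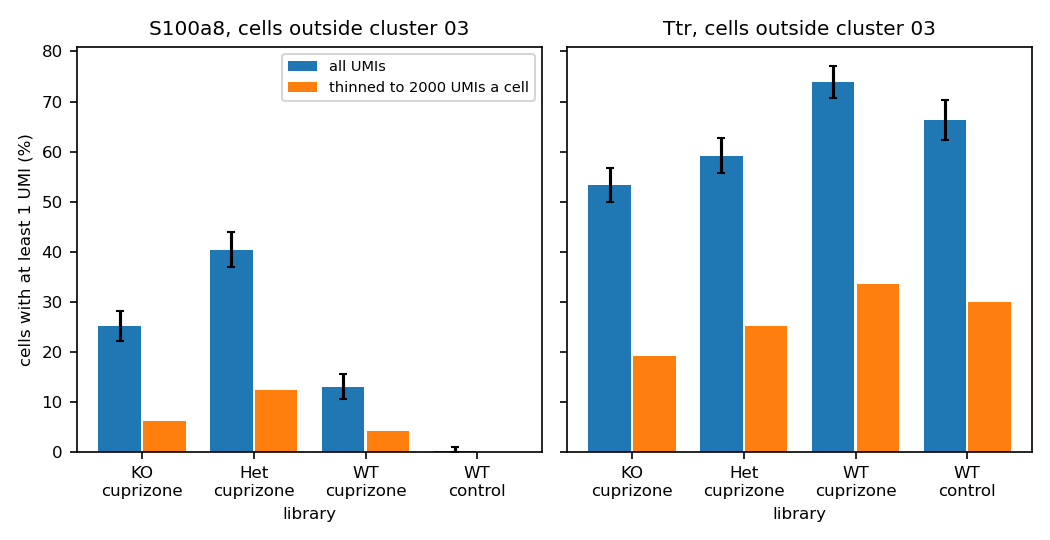
Bars give the percentage of cells outside cluster 03 with at least 1 UMI of S100a8 (left) or Ttr (right) in each library, with all UMIs and with each cell thinned to 2000 UMIs. Error lines are exact binomial 95% intervals. S100a8 is highest in Het cuprizone at 40.4% and lowest in WT control at 0.177%, and Ttr is above 50% in all 4 libraries.

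As a sum, the 32 cells with neither set were led by Slco1c1, Slco1a4, Cxcl12, Cldn5, Ly6c1, Itm2a, Igfbp7, Olig1, Car4 and Spock2, most of them genes of brain endothelium. The endothelial list was called higher for 8 of 8 genes, the oligodendrocyte list for 8 of 9 and the microglia list lower for 16 of 16. Over all 10442 genes, 15.3% were called higher and 5.82% lower. The endothelial members Slco1a4, Esam, Ly6c1, Itm2a and Cldn5 had 6, 7, 20, 27 and 29 UMIs outside. They passed the UMI minimum only through the 32 cells, so nothing is read from 8 of 8 against the share of all genes. Over all alternatives the higher count ran from 6 to 8 for the endothelial list and 5 to 8 for the oligodendrocyte list. With TMM scaling 36.3% of the calls were higher, against 72.4% with CPM. Without the WT cuprizone library 1052 genes were higher, against 1595. These 32 cells hold several kinds, which follow with the oligodendrocyte cells of the Enpp2 set. Each kind was assigned by its own marker list, so the count of that list's members called higher is set by the choice of cells, and nothing is read from it against the share of all genes.

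Oligodendrocyte genes led 8 cells, 3 in KO cuprizone, 4 in Het cuprizone, 1 in WT cuprizone and 0 in WT control. The list summed to 172 to 475 UMIs a cell with a median of 330, and 10 of 10 genes of the list that chose the cells were higher (all genes 7.71% higher, 3.7% lower). Mbp, myelin basic protein, had 453 UMIs, Trf (transferrin) 425, Cldn11, the tight junction protein of myelin, 100, and Mog 75. Enpp2 was at 6 to 15 UMIs and Ttr at 2 or fewer in each of the 8, so these cells straddled the Ttr and Enpp2 limit: 4 lay above it and 4 below. In 1 of the 8, from the Enpp2 cells, the microglia list took 2.98% of UMIs.

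Endothelial genes led 11 cells, 1 in KO cuprizone, 1 in Het cuprizone, 6 in WT cuprizone and 3 in WT control. The list summed to 53 to 269 UMIs a cell, and 8 of 8 tested genes of the list that chose the cells were higher (all genes 10.7% higher, 3.74% lower). Cldn5, the tight junction protein of the blood-brain barrier, was at 7692 CPM in KO cuprizone, 8386 in Het cuprizone, 8719 in WT cuprizone and 9826 in WT control, against 1.09 CPM over all outside cells. The transporters Slco1a4 (113 UMIs in 11 cells, 6 outside) and Slco1c1 (63 UMIs in 10 cells, 2 outside), which carry organic anions and thyroid hormone across that barrier, were found with it. Cxcl12, a chemokine, had 183 UMIs, but 118 of them came from 1 cell, in WT cuprizone. One further endothelial gene, Cdh5, had 11 UMIs in 7 cells and was too sparse for a call.

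Astrocyte genes led 5 cells, 4 in KO cuprizone and 1 in WT control. The list summed to 41 to 80 UMIs a cell, and 5 of 5 tested genes of the list that chose the cells were higher (all genes 3.87% higher, 2.11% lower). Aldoc, an aldolase of astrocytes, had 75 UMIs, Clu 64, Slc1a3 25 and Slc1a2 24, the last pair the glutamate transporters of astrocytes. The water channel gene Aqp4 had 27 UMIs in all 5 cells against 4 in all cells outside. Gfap, the intermediate filament of reactive astrocytes, had 1 UMI.

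Smaller sets made up the rest. The neuron list led 3 cells, 1 in each cuprizone library, with Tubb3 at 38 UMIs, Stmn2 at 18 and Nnat at 33, while Rbfox3 and Nrgn of mature neurons were at 0 (background 3.7% higher, 0.821% lower). B or plasma cell genes led 3 cells, 1 in each cuprizone library. Ly6d had 40 UMIs in all 3, Mzb1 30 in 3 and Ebf1 24 in 2, and 123 Jchain UMIs came from 1 cell in KO cuprizone. The cell cycle list was called higher for 12 of 13 genes in their sum (background 4.81% higher, 1% lower), and it rested on 2 cells, with 8 UMIs in the KO cuprizone cell, 143 in the Het cuprizone cell and 110 in the WT cuprizone cell. These sets of 3 cells are too small for more than a list of what they hold.

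Single cells carried further sets. A Het cuprizone cell with 23715 UMIs held 1107 UMIs of Prss34 and 574 of Mcpt8, both proteases of basophils, against 43 and 40 UMIs in all outside cells, with 33 of the transcription factor Gata2. Its microglia share was 3.48%, and by the list rule it was led by the secondary and tertiary granule list, at 42 UMIs. The mast cell or basophil list had 1 measured gene, and the fibroblast and platelet lists 2 each. None of these lists could pass the rule of 3 genes in any cell. Another Het cuprizone cell was led by Vtn (95 UMIs), Rgs5 (20) and Myl9 (15), genes of pericytes and smooth muscle. Oligodendrocyte precursor genes led a WT cuprizone cell (Olig1 14, Olig2 8, Sox10 5 UMIs). The last 3 cells passed no list. Of these, a WT control cell had Olig1 at 18 and Cspg5 at 10 UMIs, a KO cuprizone cell Fabp7 at 61 and Ptn at 32 UMIs, and a WT cuprizone cell Ptn at 44, Npy at 18 and Hes5 at 6.

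As a whole, cluster 03 was called higher for 1424 of 10528 genes (13.5%) and lower for 1405 (13.3%) against the outside cells. Its leading genes mixed the kinds above: Slco1c1 (85 UMIs in 18 cells), Enpp2 (1606 in 29), Cldn5 (459 in 14), Igfbp7 (140 in 20), Stk39 (107 in 20), Itm2a (284 in 14), Mal (82 in 16), Ttr (32648 in 44), Car2 (447 in 29) and Ndrg1 (59 in 17). All 16 microglia genes were called lower, with a median log2 ratio of -2.29 against -0.02 over all genes tested, and P2ry12 was 4.99-fold, Cx3cr1 7.001-fold and Csf1r 5.46-fold lower. All 10 border-associated macrophage genes and all 8 immediate early genes were called lower too, and 12 of 13 cell cycle genes higher. The counts of 10 and 8 held with other scalings. Over all alternatives they fell to as few as 4 of 10 border-associated macrophage genes and 7 of 8 immediate early genes. The cell cycle count ran from 10 to 13 over all alternatives. The lowest gene was Lpl (lipoprotein lipase), with 1 UMI in the cluster against 4737 outside (ratio 0.0115, 0.000291 to 0.0642). Ccl2 had 4 UMIs against 4638, and the MHC class II gene H2-Aa 10 against 11157.

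The microglia list lay apart in the cluster and in the rest. Its share of UMIs had a median of 0.362% in cluster 03 (0.0800 to 4.55) against 6.09% outside, and it was under 1% in 54 of the 66 cluster cells and in 1 of 2957 cells outside. Trem2 is a member of that list, so its level is part of the same result. It was at 156 CPM in the cluster in KO cuprizone against 499 outside, and at 390 against 1703 in Het cuprizone. In WT cuprizone it was at 371 against 2848, and in WT control at 257 against 3004. The genes behind the sort were also measured. Itgam (CD11b) had 0 UMIs in the 27 cells led by oligodendrocyte, endothelial, astrocyte or neuron genes, which allows up to 3 of 27 cells with a UMI, or 11.1% (exact binomial upper limit 12.8%), against 75.2% of outside cells, at median depths of 3010 and 6473 UMIs. Ptprc (CD45) had 2 UMIs in those 27 cells (18.5 CPM, 2.24 to 66.9) and 0 in the 11 Ttr cells, against 146 CPM outside and 131 CPM (84.7 to 193) in the neutrophil-gene cells. Itgam had 4 UMIs in 3 of the 11 Ttr cells (29.6 CPM, 8.07 to 75.9), against 303 CPM outside. At this depth, 0 UMIs do not show that a cell lacks the transcript, and how these cells passed the gate was not tested.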

How the data were processed

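The deposited values are raw UMI counts. The submitters' processing notes name Cell Ranger 2.1.1 and mm10, and a deposited file places every cell in a library and a cluster. The sources used here do not give the clustering parameters or the counting annotation. The table holds 12800 genes and 3023 cells, with no gene detected in fewer than 8 of them.

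UMIs were summed per kind of cell and set against all cells outside cluster 03 as a ratio of CPM with an exact conditional (Clopper-Pearson) 95% interval. A side at 0 was set to 3 UMIs. A CPM has an exact Poisson and a share an exact binomial interval. A cell outside the 2 marker sets was assigned to the marker list with at least 10 UMIs over at least 3 genes that led it. Named genes are the 6 markers and Trem2, the 10 highest and lowest ratios past fixed minimums, list members, genes of the sort and leading genes of single cells. Gene models off the lists were counted, not named. The calls recovered known folds in summed counts drawn with counting error only. That draw held no differences between cells, so it does not bear on sums that rest on few cells. Members and lists were chosen with earlier results of these data known.

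Scanpy 1.11.5 (scrublet, per library), edgeR 4.0.16 (TMM), DESeq2 1.42.0 (size factors), NumPy 2.4.6, SciPy 1.17.1 and pandas 2.3.3 were used. No cell was removed, since the doublet caller marked 0 cells of the cluster. Alternatives were other limits, scalings and filters, each library or the top cell left out, and thinning to 2000 UMIs.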

Additional observations from a re-analysis of the deposited data

How the results depend on the processing

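No paired analysis was possible because each group has 1 library. Each limit tried gave 19 neutrophil-gene cells, while Ttr or Enpp2 cells that were not neutrophil-gene cells numbered 11 to 21. At 5 UMIs, 1 neutrophil-gene cell also passed for Ttr. Outside the cluster, a limit of 5 UMIs gave 73 neutrophil-gene cells (10 in KO cuprizone, 63 in Het cuprizone) and 166 Ttr or Enpp2 cells, and a limit of 20 gave 1 of these. Cluster 03 had 2235 genes higher with no filter and 865 at 200 UMIs or more, against 1424. For the neutrophil-gene cells (492 higher, 1109 lower) the higher count was 326 at a minimum of 200 and 288 with each side's top cell removed, and the lower count 600 with TMM, 536 with size factors, 1767 with the top cell removed (totals are kept, so values fall by construction) and 648 without the 9 cells at 1% or more microglia UMIs, a setting chosen after seeing the data. For Ttr or Enpp2 cells (1300 higher, 1301 lower) the higher count was 756 with the top cell removed. For the other 32 cells (1595 higher, 608 lower) the higher count was 768 with TMM, 811 with size factors and 742 with the top cell removed, and the lower count 1349 and 1265 with the same scalings.

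Leaving out each library in turn gave 969 to 1406 higher and 1087 to 1341 lower for the cluster, and 346 to 495 and 569 to 1071 for the neutrophil-gene cells, lowest without Het cuprizone. The Ttr or Enpp2 cells had 862 to 1257 higher and 589 to 1252 lower, and the other cells 1052 to 1474 and 461 to 552, with 862, 589 and 1052 coming without WT cuprizone. TMM moved the median log2 ratio of all genes by 0.32 in the neutrophil-gene cells, -0.32 in the Ttr or Enpp2 cells, -0.67 in the other cells and -0.18 in the cluster. The share of calls that were higher moved to 53.8%, 36.4%, 36.3% and 40.5% with TMM, against 30.7%, 49.98%, 72.4% and 50.3% with CPM. The microglia list stayed lower for 16 of 16 genes in the cluster under every alternative. Of 690 alternative ratios of named genes, 99 moved and 0 reversed. These genes were mainly chosen for the highest or lowest ratios in the same data. A change of direction was therefore unlikely from the start, and the 0 is no measure of stability. Sets of 3 to 5 cells have few UMIs, and the causes of these moves were not tested.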
